A study of Mus musculus with 4 samples.

Results

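Follistatin, 2 follistatin-like proteins, the inhibin beta chains that build activins, and 5 secreted antagonists of bone morphogenetic proteins (BMPs) were followed in mouse colon adenoma organoids. They were taken by gene symbol, as every array probe set annotated to Fst, Fstl1, Fstl3, Inhba, Inhbb, Nog, Grem1, Chrd, Nbl1 or Twsg1. Of these 10 genes, 9 had a probe set, 15 probe sets in all among 45037 that were not controls. Inhbb had no probe set named in the annotation used and is not analysed here. The RNA came from 3D cultures of tumour epithelium on a C57BL/6 background, kept for 7 days in a medium whose listed growth factor was EGF. The 2 arrays labelled Gata6 null/Apc null came from VillinCreERT2 Gata6fl/fl Apcfl/fl cultures, and the 2 arrays labelled Apc null from VillinCreERT2 Gata6+/+ Apcfl/fl cultures. Both groups thus carried floxed Apc, the Wnt pathway suppressor, and a tamoxifen-inducible Cre driven by the Villin promoter, which is active in intestinal epithelium. Each group held 1 array of batch A and 1 of batch B, as the labels name them. GATA6 is a zinc finger transcription factor of the intestine, and the title of the series links it to the expression of BMP genes.

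BMPs and activins are secreted dimers of the TGF-beta family. They bind pairs of serine/threonine kinase receptors, which phosphorylate SMAD proteins that then enter the nucleus. BMPs act through SMAD1, SMAD5 and SMAD9, and activins through SMAD2 and SMAD3. Antagonists bind the ligands outside the cell and keep them from their receptors. In the normal colon, Grem1 and other BMP antagonists come largely from fibroblasts and smooth muscle cells around the crypt base, where low BMP signalling goes with the stem cell zone.

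The arrays as a whole gave the frame for these values. Array medians lay between 4.91 and 5.04 log2 units. Genes whose brightest probe set averaged under 4.45 log2 units, the 40th percentile of all probe sets, were left out as dim, and 7 of the 9 member genes remained among 11874 genes tested. Levels are log2 values after normalization, and differences are Gata6 null/Apc null minus Apc null, as the arrays are labelled. Gata6 itself read 9.37 and 9.40 for Gata6 null/Apc null, against 8.89 and 8.61 for Apc null (limma adjusted p = 0.418, and 0.0392 with the block). These levels, higher in Gata6 null/Apc null arrays, go against the labels. Here and below, a pair of values gives batch A first and batch B second. Apc, floxed in both groups, read 8.34 and 8.14 in Gata6 null/Apc null arrays, against 8.35 and 8.34 in the Apc null arrays. Where the Gata6 and Apc probe sets lie relative to the floxed exons was not given, so every direction below rests on the labels, and group names are those of the labels. All 10 epithelial markers were above the filter level on every array. With the batch as a block 1 of them passed, beside 6.88% of all genes. It was the intestinal homeobox gene Cdx2, with a difference of -1.57 (limma adjusted p = 0.228, and 0.00545 with the block). Groups did not overlap for 6 of the 10, all lower in Gata6 null/Apc null arrays, beside 2053 of the 11874 genes tested. The median difference of these markers was -0.22. Of the 13 fibroblast and smooth muscle markers, 6 and 4 were above it in Gata6 null/Apc null arrays A and B, against 7 and 6 in the Apc null arrays. Their summed linear signal was 317 and 273 in Gata6 null/Apc null arrays and 298 and 301 in the Apc null arrays. Col1a1, Col1a2, Col3a1, Pdgfra, Lum and Thy1 were under the filter level on all 4 arrays. Another 4 of the markers, Acta2, Myh11, Pdgfrb and Cnn1, were above it on all 4 arrays. In such bulk RNA, fewer cells of a type and less RNA per cell cannot be told apart.

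Fst was the member with the largest difference between the groups. It encodes follistatin, which wraps around activin dimers with very high affinity and also binds several BMPs. Its brighter probe set, 1421365_PM_at, read 8.38 and 7.79 in Gata6 null/Apc null arrays A and B, against 5.12 and 5.57 in the Apc null arrays. The groups did not overlap, and the difference was 2.74 log2 units, or 6.68-fold (SE 0.33, 95% interval 1.89 to 3.59). The limma adjusted p was 0.0583 with genotype alone and 0.00467 with the batch as a block, so the gene passed the threshold of 0.05 in the blocked comparison alone. By size of increase Fst stood at rank 62 of 11874 genes and by p at rank 97.

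A second probe set of the gene, 1434458_PM_at, gave the same order. It read 7.91 and 6.98 in Gata6 null/Apc null arrays, against 3.86 and 3.99 in the Apc null arrays. Its difference was 3.52 log2 units, or 11.4-fold (SE 0.37). Here the Apc null values lay under the filter level, so the probe set entered the test through the other group and its fold depends on the array floor. In the fit over 27022 probe sets its limma adjusted p was 0.0792, or 0.00290 with the block, and the brighter probe set had 0.111 and 0.00654. Within batch A the probe sets differed by 3.26 and 4.04 and within batch B by 2.22 and 2.99. In both probe sets the larger gap was thus in batch A, where the Gata6 null/Apc null array was the higher of its group and the Apc null array the lower.

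**Figure D1:**
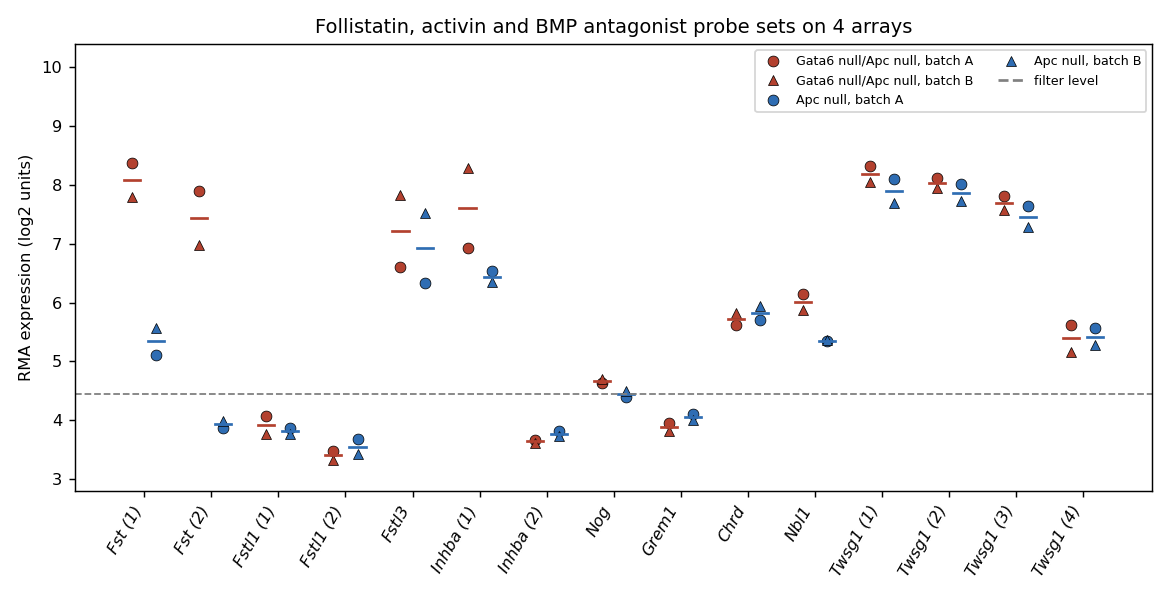
RMA expression in log2 units of the 15 probe sets on each array, with Gata6 null/Apc null arrays to the left and in red, Apc null in blue, batch A as circles, batch B as triangles, group means as bars and the filter level of 4.45 as a dashed line; numbers in brackets order the probe sets of a gene from bright to dim. Both Fst probe sets show a wide gap between the groups, Fstl3 separates by batch, and Fstl1, Grem1 and the dimmer Inhba probe set lie under the line on all arrays.

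Of the follistatin-like genes, Fstl3 did not pass between the groups and Fstl1 was too dim to test. Fstl3 encodes a close relative of follistatin that also binds activins. It read 6.61 and 7.84 in Gata6 null/Apc null arrays A and B, against 6.33 and 7.52 in the Apc null arrays. The groups overlapped, and the difference of 0.29 (SE 0.60, 95% interval -1.26 to 1.85) did not pass (limma adjusted p = 1.00, and 0.429 with the block). Both batch B arrays lay above both batch A arrays. In the blocked fit batch B exceeded batch A by 1.21 (SE 0.17, limma adjusted p = 0.0147), a comparison made after the values were seen, and 16.6% of all genes passed it. No other member passed between the batches. Fstl1, a secreted glycoprotein with a follistatin domain that is made mainly by mesenchymal cells, had 2 probe sets. They read 3.32 to 4.06 in Gata6 null/Apc null arrays and 3.42 to 3.87 in the Apc null arrays, all under the filter level, so no difference was tested.

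Inhba encodes the beta A chain, whose dimer is activin A, the main ligand that follistatin binds. Its brighter probe set read 6.93 and 8.29 in Gata6 null/Apc null arrays A and B, against 6.53 and 6.35 in the Apc null arrays. The groups did not overlap, but most of the gap came from 1 array, that of Gata6 null/Apc null in batch B. The difference was 1.17 (SE 0.50, 95% interval -0.12 to 2.46), with 0.40 within batch A and 1.94 within batch B. It did not pass (limma adjusted p = 0.707, and 0.133 with the block). Without that array it was 0.49, and with Gata6 null/Apc null array A left out instead it was 1.85. Whether the gap differs between batches could not be tested, since each batch holds 1 array of each group. The other probe set of the gene, 1458291_PM_at, read 3.61 to 3.67 in Gata6 null/Apc null arrays and 3.74 to 3.81 in the Apc null arrays. It lay under the filter level throughout and gives no check on the brighter one.

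Nbl1, which encodes the BMP antagonist DAN, was higher in both Gata6 null/Apc null arrays. It read 6.15 and 5.87 there, against 5.34 and 5.36 in the Apc null arrays. The Apc null arrays lay close together and the groups did not overlap. The difference was 0.66, or 1.58-fold (SE 0.21, 95% interval 0.12 to 1.20), with 0.80 within batch A and 0.51 within batch B. It did not pass after adjustment over all genes (limma adjusted p = 0.459, and 0.108 with the block).

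Besides Fst, the members with separated groups were Inhba, Nbl1 and Nog, and for Inhba and Nbl1 RefSeq's promoter table (GRCm38.p6) holds a window. Both are shown because their groups did not overlap, with higher values in Gata6 null/Apc null arrays. Each sequence is the 250 bases before the listed transcript start, 5′ to 3′ on the gene's strand, with motif matches in capitals. Inhba lies on the plus strand, at chr13:16011601-16011850, and Nbl1 on the minus strand, at chr4:139092971-139093220. The RefSeq gene span of Inhba is chr13:16004256-16031609, so its window lies inside the gene, before an internal start. That of Nbl1 ends at 139093126, so its window overlaps the 5′ end of the gene.
Inhba: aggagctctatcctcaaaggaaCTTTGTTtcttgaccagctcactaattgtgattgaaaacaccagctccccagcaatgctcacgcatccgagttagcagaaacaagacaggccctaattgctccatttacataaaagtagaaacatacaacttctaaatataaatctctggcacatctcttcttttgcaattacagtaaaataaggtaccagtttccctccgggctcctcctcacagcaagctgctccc
Nbl1: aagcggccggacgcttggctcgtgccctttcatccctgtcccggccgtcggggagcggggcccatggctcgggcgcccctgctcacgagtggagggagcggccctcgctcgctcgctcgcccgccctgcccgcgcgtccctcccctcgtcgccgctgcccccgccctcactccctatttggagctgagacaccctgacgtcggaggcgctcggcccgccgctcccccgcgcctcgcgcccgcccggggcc
The motifs searched, on both strands, were those of GATA factors, spelled AGATAA or else AGATAG, or beginning with T as TGATAA or else TGATAG, and those of TCF/LEF factors, spelled CTTTGAA or else CTTTGAT, or with a later T as CTTTGTA or else CTTTGTT. The Inhba window holds CTTTGTT once, from 228 to 222 bases before the start, and neither window holds a GATA form. Of 8 member genes with a window, 1 had a GATA form, Inhbb, and 1 a TCF/LEF form, Inhba. Among all 32851 promoter windows of that length, 26.5% held a GATA form and 14.8% a TCF/LEF form. These matches describe letters within this window and were not tested for binding.

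Nog and Chrd, the classical antagonists of the embryonic organizer, showed small differences that did not pass. Nog encodes noggin, which covers the receptor-binding faces of BMP dimers. It read 4.64 and 4.70 in Gata6 null/Apc null arrays, against 4.40 and 4.49 in the Apc null arrays. These values straddle the filter level, and although the groups did not overlap, the difference of 0.23 (SE 0.13, 95% interval -0.11 to 0.56) did not pass (limma adjusted p = 0.913, and 0.455 with the block). Chrd encodes chordin, which holds BMPs until it is cut by tolloid proteases. It read 5.63 and 5.83 in Gata6 null/Apc null arrays, against 5.70 and 5.94 in the Apc null arrays. The groups overlapped, and the difference was -0.09 (SE 0.22, 95% interval -0.65 to 0.47; limma adjusted p = 1.00, and 0.859 with the block).

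Twsg1 encodes twisted gastrulation, which binds both BMPs and chordin and can either strengthen or relieve the inhibition. It was measured by 4 probe sets above the filter level. The brightest read 8.32 and 8.05 in Gata6 null/Apc null arrays, against 8.10 and 7.70 in the Apc null arrays. The groups overlapped, and the difference was 0.29 (SE 0.26, 95% interval -0.39 to 0.96; limma adjusted p = 1.00, and 0.348 with the block). The other Twsg1 probe sets differed by 0.24, 0.16 and -0.02, and all overlapped between the groups. With genotype alone the intervals of Chrd and Twsg1 exclude a change of 1 log2 unit in either direction and that of Fstl3 does not. With the block the interval of Fstl3 was -0.12 to 0.71. Grem1, the gremlin antagonist of BMP2 and BMP4 made by fibroblasts, read 3.95 and 3.81 in Gata6 null/Apc null arrays and 4.10 and 4.004 in the Apc null arrays. It was under the filter level on every array and was not tested.

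**Figure D2:**
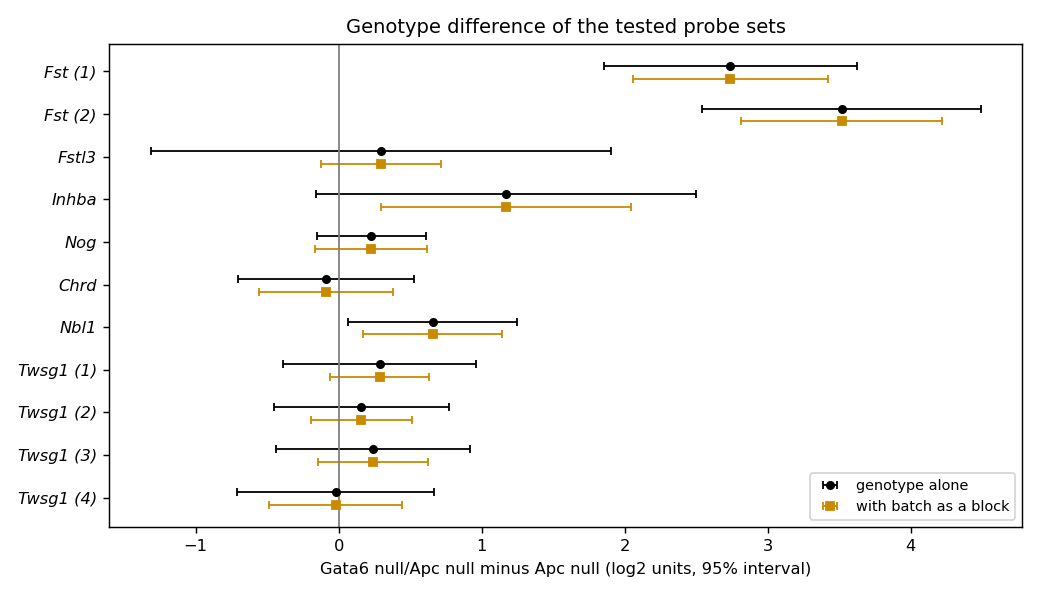
Genotype difference in log2 units, Gata6 null/Apc null minus Apc null, of the 11 probe sets above the filter level, with 95% intervals from limma over 27022 probe sets; black circles are the fit with genotype alone and orange squares the fit with the batch as a block. The unadjusted intervals of both Fst probe sets and of Nbl1 lie above 0 in both fits, that of Inhba does so with the block, and that of Fstl3 is much narrower with the block.

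Over the 7 member genes tested, none passed the limma threshold with genotype alone, beside 0.648% of all genes. With an unadjusted p under 0.05 there were 2, Fst and Nbl1, beside 7.97% of all genes. With the block 1 member passed, Fst, as higher, beside 3.91% of all genes called higher and 6.88% called in either direction. Among the 11 probe sets tested, none passed with genotype alone (0.2% of all probe sets) and 3 had an unadjusted p under 0.05 (6.39%). With the block 2 passed as higher, both of Fst, beside 2.55% called higher and 4.43% called in either direction. The dimmer of these 2, also among the 3, entered the test through its Gata6 null/Apc null values. Groups did not overlap for 4 of the 7 genes, all higher in Gata6 null/Apc null arrays, beside 14.7% of all genes separated in that direction and 32% in either. Of these 4, Nog passed the filter through its Gata6 null/Apc null values, since its Apc null mean of 4.44 lay under it. The median difference was 0.29 log2 units over the members and -0.03 over all genes tested. Within the batches 6 of the 7 were higher in both and Chrd was lower in both, while 27.1% of all genes were higher in both.

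**Figure D3:**
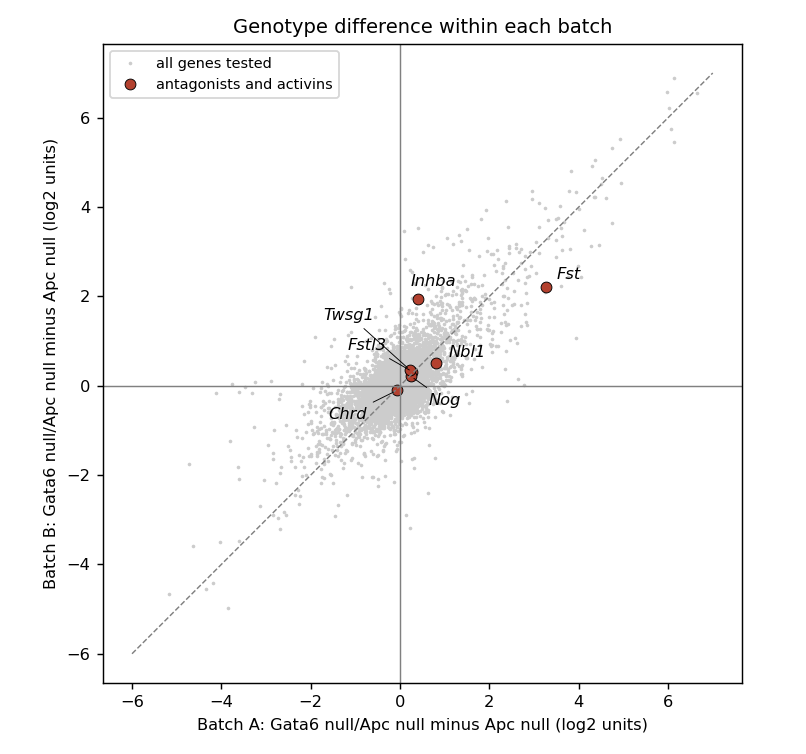
Difference between the Gata6 null/Apc null array and the Apc null array in batch A (horizontal) and in batch B (vertical), in log2 units, for the 7 member genes in red and all 11874 genes tested in grey; the dashed line marks equal values. Fst lies far out at 3.26 and 2.22, Inhba lies above the line at 0.40 and 1.94, and the others lie within 1 log2 unit of 0.

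The genes whose centred values over the 4 arrays were nearest to those of Fst were Msrb3, Nynrin, Bmp7, Zbtb7c and Padi4. Their Euclidean distances to Fst were 0.32, 0.35, 0.41, 0.43 and 0.52 log2 units. The Apc null means of Msrb3 and Nynrin, 4.41 and 4.20, lay under the filter level, so their gaps depend on the array floor. Msrb3 encodes a methionine sulfoxide reductase and Padi4 a peptidyl arginine deiminase. The BMP ligand gene Bmp7 read 7.74 and 7.502 in Gata6 null/Apc null arrays, against 4.80 and 4.81 in the Apc null arrays. Likeness over 4 arrays is a description of this contrast.

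The other genes of the pathway were set beside the members by list. Of 8 further secreted BMP and activin antagonists tested, 1 passed as higher with genotype alone, beside 0.522% of all genes, and none as lower. It was Htra1, a secreted serine protease known to bind TGF-beta family ligands. It read 6.36 and 6.93 in Gata6 null/Apc null arrays, against 3.70 and 3.95 in the Apc null arrays, a difference of 2.82 (SE 0.26, limma adjusted p = 0.0314). The Apc null values lay under the filter level, so the size depends on the array floor. The list's median was -0.04. Of 7 tested proteins with a follistatin domain, Spock2 alone passed, beside 0.648% of all genes. Its difference was 5.79 (limma adjusted p = 0.0243).

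Over all genes tested, 0.648% passed with genotype alone and 7.97% had an unadjusted p under 0.05. With the block 3.91% were called higher and 6.88% in either direction. The counts of this paragraph stand beside these shares. On the side of the ligands, 8 genes listed as BMP ligands were tested, with a median of 0.76, and 1 passed with genotype alone, Bmp7. The list holds Bmp1, with a difference of 0.77, which encodes a protease and not a ligand despite its name. Bmp1 is also counted below among genes that process these ligands. With the block 2 were higher, Bmp7 and Bmp2, and 1 was lower, Bmp8b. Of 6 other genes tested from the list of activin, nodal and TGF-beta ligands, none passed with genotype alone by limma and none had an unadjusted p under 0.05. No activin or inhibin chain was among them, since Inha, Inhbc and Inhbe averaged under the filter level. They include Lefty1 and Lefty2, which encode inhibitors of Nodal. With the block Tgfb3 alone was higher, by 1.11 (limma adjusted p = 0.0240). Its groups overlapped, and in that fit batch B exceeded batch A by 1.89. Of 10 activin and TGF-beta receptors and SMADs, none passed in either fit and 1 had an unadjusted p under 0.05. That was the co-receptor gene Tgfbr3, with 0.64 (limma adjusted p = 0.535). Its Apc null values, 4.39 and 4.48, averaged under the filter level, so it entered the test through the other group. Next by p came the receptor gene Tgfbr2, with -0.56 (limma adjusted p = 0.727). The 11 BMP response genes had a median of 0.92 and none passed with genotype alone. Of them, 7 had an unadjusted p under 0.05, beside 7.97% of all genes. With the block 6 were higher, beside 3.91% of all genes, Bambi, Dlx3, Id3 and Smad7 among them. The 8 activin and TGF-beta response genes had a median of -0.08 and none passed with genotype alone, with 1 at an unadjusted p under 0.05. With the block 2 were lower, Ccn2 with a difference of -2.30 (limma adjusted p = 0.00183) and Cdkn2b with -0.67 (limma adjusted p = 0.0488). The groups overlapped for Cdkn2b and not for Ccn2.

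**Figure D4:**
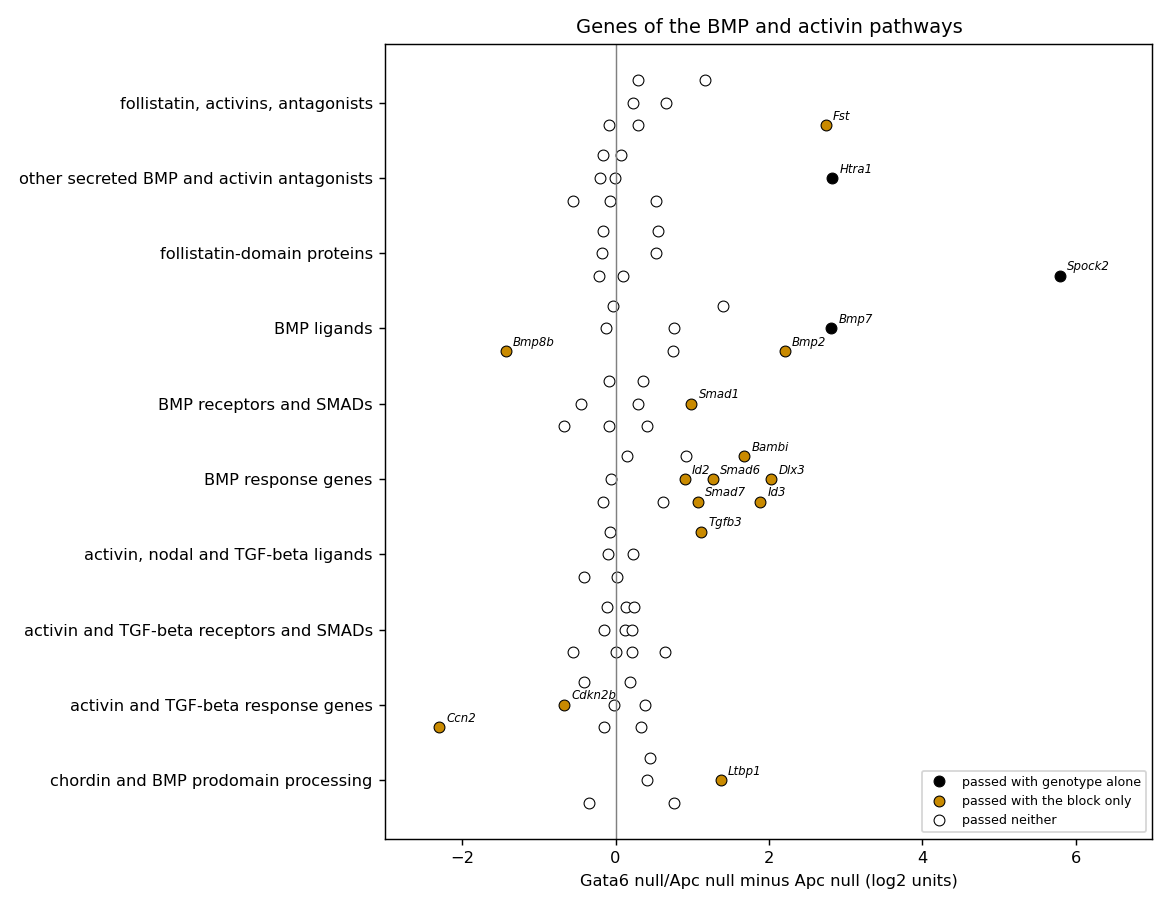
Genotype difference in log2 units, Gata6 null/Apc null minus Apc null, of each tested gene in 10 lists of the BMP and activin pathways; filled black circles passed an adjusted p of 0.05 with genotype alone, orange circles with the block only and open circles in neither. Fst lies at 2.74 near Htra1 at 2.82 and Bmp7 at 2.81, while the other members lie between -0.09 and 1.17.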

How the data were processed

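RNA of mouse colon adenoma organoids was hybridised to 4 Affymetrix arrays, 2 per genotype, after whole transcriptome amplification per the labels' protocols, which adds noise to dim probe sets. The authors deposited log2 expression per probe set, and the submitters' processing notes name RMA and the affy package, with no version. RMA equalises the arrays' distributions, so a shift of the whole array is removed, and compresses low values towards a floor. Of 45141 probe sets, 104 controls were left out. The platform annotation named 1 gene for 28898 probe sets, several for 551 (not used) and none for 15588. All per-sample columns were used.

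For each gene the brightest probe set, by mean over the arrays, was used. Genes under the 40th percentile were left out, and a second fit took every probe set above that level. The comparison used limma 3.58.1 under R 4.3.3 (lmFit, eBayes with a trend, with genotype as its one term and 2 residual degrees of freedom), two-sided, with Benjamini-Hochberg adjustment over all features tested and a threshold of 0.05. The fit was run on simulated data to check the size and direction of its estimated differences, which sets no limit on its false calls. Standard errors and 95% intervals are those of the moderated fit. The design text calls the samples biological replicates without naming mice, so p-values measure the spread between these arrays, whose number limits the precision.

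Arrays are labelled batch A or batch B, with 1 of each genotype in either batch, which pairs them. The differences between batches in the 2 genotypes correlated at 0.675 across genes. The blocked fit (1 residual degree of freedom) is given beside the main one. Alternatives were the block, other filters, the mean of all probe sets, no shared-sequence probe sets, no trend and leaving out each array.

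The members, the lists and the naming rule were chosen with earlier results of these data known. All members are named. Of each other list, those past the threshold in either fit were named, up to 4 by smallest p, or otherwise the 2 with the smallest p; lists for which fewer or none are named are given by counts. The nearest genes to Fst are the 5 with the smallest Euclidean distance. Markers named by their level, and genes named to describe what a list holds, are outside the naming rule.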

Additional observations from a re-analysis of the deposited data

How the results depend on the processing

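With the batch as a replicate block, 1 member gene passed in place of 0, and 2 member probe sets in place of 0, in each case Fst. The dimmer of these probe sets entered the test through its Gata6 null/Apc null values. The blocked fit removes the batch difference from the residual spread. It called 817 genes in all, against 77 with genotype alone, and rests on 1 residual degree of freedom. Under no filter, a filter at the 60th percentile, the mean of all probe sets, no shared-sequence probe sets, no trend and each array left out, 0 member genes passed. Fst kept its direction under all 10 alternatives, between 2.45 and 3.13 log2 units, but none of them could have reversed it. Its groups did not overlap in either probe set, so leaving out an array or averaging the probe sets had to keep the sign. The block, the other filters, no shared-sequence probe sets and no trend left the difference at 2.74. These alternatives bear on the size and p of Fst and are no check on its direction. With all arrays kept and no block, its limma adjusted p lay between 0.0546 and 0.0664. With 1 array left out Fst differed by 2.45 to 3.03. Inhba ran from 0.49 to 1.85 over the arrays left out, Fstl3 from -0.32 to 0.91 and Chrd from -0.21 to 0.03. These fits carry no block, so leaving out an array unbalances the batches and brings the batch difference in. Within the batches the signs did not change, with 0.28 and 0.31 for Fstl3 and -0.07 and -0.11 for Chrd. Leaving out Apc null array A gave 33 calls over all genes and array B 48; leaving out Gata6 null/Apc null array A gave 130 and array B 86. The batch difference of Fstl3, added after its values were seen, passed under each of its alternatives. Probe sets near the array floor, those of Fstl1, Grem1 and Nog among them, can show little of a change.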

Other observations

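Among genes that store or process these ligands, Ltbp1, which encodes a protein that holds latent TGF-beta in the matrix, read 5.30 and 5.50 in Gata6 null/Apc null arrays, against 4.10 and 3.95 in the Apc null arrays. The difference was 1.37 (SE 0.16, limma adjusted p = 0.0548 with genotype alone and 0.00744 with the block). Its Apc null values lay under the filter level. Of the 5 genes tested in that list, 4 had separated groups with higher values in Gata6 null/Apc null arrays, beside 14.7% of all genes. They were Ltbp1, Olfml3, Bmp1 and Pcsk6. Furin, a protease that matures BMP and activin precursors, was separated the other way, with a difference of -0.35 (limma adjusted p = 0.957). Those besides Ltbp1 are named outside the rule, with their values known. Of 8 BMP receptors and SMADs tested with limma, none passed with genotype alone. Beside 7.97% of all genes, 2 had an unadjusted p under 0.05. Beside 3.91% of all genes, 1 was higher with the block. That was Smad1, which carries BMP signals and differed by 0.99 (limma adjusted p = 0.206 with genotype alone and 0.0155 with the block). The other with an unadjusted p under 0.05 was Rgmb, a BMP co-receptor gene also named outside the rule, with -0.68 (limma adjusted p = 0.617). Among the Wnt target genes measured, Lef1, a TCF/LEF factor, was higher by 4.29 (limma adjusted p = 0.0137), from Apc null values under the filter level. Axin2, which encodes a scaffold of beta-catenin breakdown, differed by 0.46 (limma adjusted p = 0.817 with genotype alone and 0.0798 with the block).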
